A study of Bos indicus with 6 samples.

Results

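The annexins are a family of proteins that bind phospholipid membranes, most of them in a calcium-dependent way, and their transcripts were examined here in the isthmus, the narrow part of the oviduct next to the uterus. Members were the rows of the isthmus table whose gene symbol equalled ANXA1, ANXA2, ANXA3, ANXA4, ANXA5, ANXA6, ANXA7, ANXA8, ANXA9 or ANXA11, which gave 10 of 24616 rows, 1 row for each symbol, and all 10 passed the filter on low and uneven values. RNA-seq libraries came from 6 multiparous, non-lactating Nelore cows, 3 that ovulated a larger follicle and formed a larger corpus luteum (LF/LCL, cows 617, 79 and 527) and 3 with a smaller follicle and corpus luteum (SF/SCL, cows 856, 489215 and 97). Every cow received estradiol benzoate with a progesterone device, prostaglandin at device removal and again later, and a GnRH agonist to induce ovulation. The LF/LCL cows had an additional prostaglandin injection when the device was placed, and their device came out 42 h before GnRH, against 30 h in the SF/SCL cows. Tissue through the full wall of the isthmus on the side of the corpus luteum was taken on day 4. The animals sequenced were those ranked highest in LF/LCL and lowest in SF/SCL for follicle, corpus luteum and hormone measures, so they stand for the ends of the 2 groups.

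Annexins share a conserved core that docks on membranes rich in acidic phospholipids such as phosphatidylserine, preceded by a variable N-terminal part through which members bind different partners. In cattle, ANXA1, ANXA2, ANXA4 and ANXA5 at the surface of the oviduct epithelium are known as candidate receptors for bull sperm, which attach to the isthmus through proteins of seminal plasma that recognise fucose-containing glycans. Other members take part in membrane repair, vesicle traffic, blunting of inflammation and plasmin formation, and several are common in smooth muscle and stromal cells as well as in epithelium.

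The recovered libraries held 23899117 to 34193164 reads, and values are normalized counts, that is, reads divided by the size factor of the library. Cow 489215 stood apart from the other SF/SCL cows. Its deposited values summed to 33913666, against 25901138 to 26900121 in the other cows, and the median residual SD over all genes tested fell from 0.435 to 0.184 on the log2 scale without it. Marker lists were read for the cell types of the oviduct wall. No ampulla library was read here, so whether they can tell isthmus from ampulla was not tested. The epithelial marker EPCAM stood at 8530 to 20313 normalized counts, the sum of 6 smooth muscle markers at 315210 to 1207460, and erythrocyte markers summed to at most 6.66. The oviduct-specific glycoprotein OVGP1 was at 271794 and 325158 normalized counts in SF/SCL cows 856 and 97, at 730 in cow 489215 and at 287 to 1950 in the LF/LCL cows. By qPCR over more cows, the paper reported more OVGP1 in the ampulla than in the isthmus, and no group effect. Because the pattern of cow 489215 was known from earlier work on these data, each annexin is given with and without this cow, and the fit without it is an alternative, not the main one.

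With all 6 libraries, no annexin passed the threshold between the groups. Limma with Benjamini-Hochberg adjustment called 0 of 10 annexins, as it called 0.0% of the 15387 genes tested. Before adjustment, 3 of 10 annexins had p under 0.05 in limma, against 8.66% of all genes tested. These were ANXA4 and ANXA8, with larger values in SF/SCL as for 4.19% of all genes, and ANXA6, with larger values in LF/LCL as for 4.48%. On the recovered reads the quasi-likelihood test of edgeR called none of the genes (0), although 1338, or 8.7%, had p under 0.05 before adjustment, and the Wald test of DESeq2 called 416 genes, or 2.7%, of which 0 were annexins. LF/LCL and SF/SCL values were fully separated for 2 of 10 annexins, ANXA4 and ANXA6, against 18.1% of all genes tested. The log2 fold change is SF/SCL relative to LF/LCL on log2(normalized count + 1), and it is negative where LF/LCL had more. Their median over the annexins was 0.38, beside -0.02 over all genes tested, with 8 annexins above 0 and 2 below.

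Without cow 489215, 3 annexins passed the threshold. ANXA8 and ANXA9 were higher in SF/SCL and ANXA6 was higher in LF/LCL by limma with Benjamini-Hochberg adjustment. That is 3 of 10, against 18.2% of the 15495 genes tested without this cow, of which 10.3% were higher in SF/SCL and 7.92% higher in LF/LCL. On the recovered reads without this cow, edgeR and DESeq2 also called 3 annexins each, beside 17.9% and 25.4% of all genes. Non-overlapping values were found for ANXA4, ANXA6, ANXA7, ANXA8 and ANXA9, 5 of 10, but also for 52.0% of all genes tested. The median log2 fold change of the annexins became 0.11, with 6 above 0 and 4 below.

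**Figure D1:**
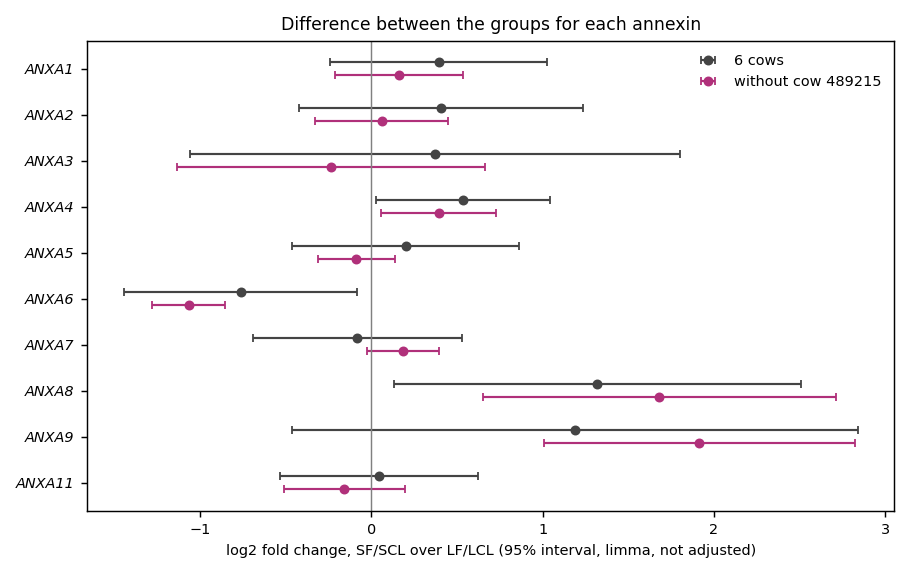
Log2 fold change of each annexin, SF/SCL over LF/LCL, with its unadjusted 95% interval from limma, for 6 cows (grey) and without cow 489215 (magenta). With 6 cows the intervals of ANXA4, ANXA6 and ANXA8 leave out 0, and without cow 489215 those of ANXA4, ANXA6, ANXA8 and ANXA9 do.

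Counts are not compared between different annexins, because a longer transcript gives more reads and transcript lengths were not used here. Each member is described across the cows, in the order LF/LCL cows 617, 79 and 527, then SF/SCL cows 856, 489215 and 97.

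**Figure D2:**
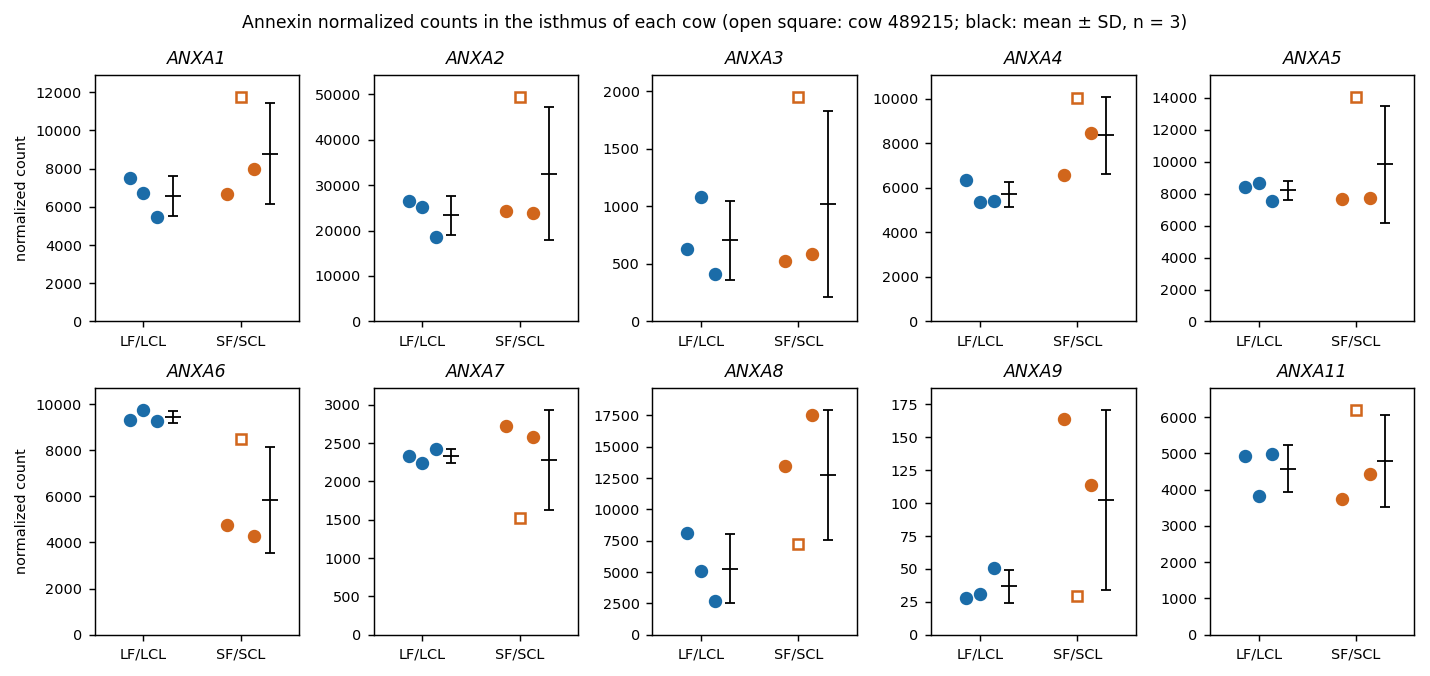
Normalized count of each annexin (vertical axes, each from 0, with a scale of its own) in the LF/LCL cows (blue) and SF/SCL cows (orange, cow 489215 as an open square), with mean ± SD of 3 cows in black. ANXA6 is tight in LF/LCL at 9263 to 9729 and lower in each SF/SCL cow, whereas cow 489215 sets the upper end of ANXA1, ANXA2, ANXA3, ANXA4, ANXA5 and ANXA11.

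The members known as candidate receptors for bull sperm come before the others. ANXA1, also known as lipocortin, a mediator of glucocorticoid action that limits phospholipase A2, had 7489, 6744 and 5455 normalized counts in LF/LCL and 6655, 11755 and 7973 in SF/SCL. The groups overlapped, and the largest value was that of cow 489215. The group means were 6563 ± 1029 and 8794 ± 2647 (SD, n = 3), and the log2 fold change was 0.39, with a 95% interval from -0.24 to 1.03. It was not called (limma with Benjamini-Hochberg adjustment, adjusted p = 0.772), nor without cow 489215, where it was 0.16 (limma with Benjamini-Hochberg adjustment, adjusted p = 0.508).

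ANXA2, which pairs with S100A10 and gathers plasminogen and its activator at the cell surface, had 26577, 25062 and 18534 normalized counts in LF/LCL and 24309, 49359 and 23891 in SF/SCL. Apart from cow 489215, both SF/SCL values lay inside the LF/LCL range. Its log2 fold change of 0.41 had an interval from -0.43 to 1.24 and was not called (limma with Benjamini-Hochberg adjustment, adjusted p = 0.836). Without cow 489215 it was 0.06, with an interval from -0.33 to 0.45.

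ANXA5, the classical probe of exposed phosphatidylserine, had 8442, 8676 and 7547 normalized counts in LF/LCL and 7690, 14055 and 7738 in SF/SCL. Again only cow 489215 lay outside the LF/LCL range. The log2 fold change was 0.20 with all cows (interval -0.47 to 0.86, limma with Benjamini-Hochberg adjustment, adjusted p = 0.895) and -0.09 without cow 489215 (interval -0.31 to 0.14).

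ANXA4, an epithelial annexin that acts in exocytosis and membrane trafficking, differed from the other sperm receptors in that its groups did not overlap. It had 6338, 5354 and 5393 normalized counts in LF/LCL and 6557, 10001 and 8471 in SF/SCL. All 3 SF/SCL cows were above all 3 LF/LCL cows, although cow 856 was close to cow 617. The means were 5695 ± 557 and 8343 ± 1725 (SD, n = 3), and the fitted ratio was 1.45-fold, a log2 fold change of 0.53 ± 0.21 (SE). It was not called with 6 libraries (limma with Benjamini-Hochberg adjustment, unadjusted p = 0.0422, adjusted p = 0.554). Without cow 489215 the ratio was 1.31-fold and also not called (limma with Benjamini-Hochberg adjustment, adjusted p = 0.102).

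ANXA6 is a longer annexin with a repeated core, known from muscle and stromal cells, where it takes part in cholesterol traffic, membrane repair and calcium handling. It had 9320, 9729 and 9263 normalized counts in LF/LCL and 4755, 8471 and 4266 in SF/SCL. Every LF/LCL cow was above every SF/SCL cow, and cow 489215 lay much closer to LF/LCL than to its own group. The LF/LCL values differed little, with a CV of 2.69%. The means were 9437 ± 254 in LF/LCL and 5831 ± 2300.0 in SF/SCL (SD, n = 3), and ANXA6 was 1.70-fold higher in LF/LCL, a log2 fold change of -0.76 ± 0.28 (SE) with an interval from -1.44 to -0.08. This difference did not pass the threshold with 6 libraries (limma with Benjamini-Hochberg adjustment, unadjusted p = 0.0333, adjusted p = 0.514). Without cow 489215 it was 2.09-fold, a log2 fold change of -1.07 ± 0.09 (SE), and it passed (limma with Benjamini-Hochberg adjustment, adjusted p = 0.00237). In this bulk tissue fewer cells that express a gene and less of its RNA per cell cannot be told apart, for ANXA6 or any other member.

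ANXA8, found in many stratified and ductal epithelia and linked to the organisation of late endosomes, had the largest CV of all members within LF/LCL. Its normalized counts were 8113, 5081 and 2658 in LF/LCL and 13423, 7241 and 17522 in SF/SCL. Cows 856 and 97 were above all LF/LCL cows, whereas cow 489215 fell between cows 617 and 79. Within LF/LCL the largest value was 3.05 times the smallest, with a CV of 51.7%. The means were 5284 ± 2733 and 12729 ± 5176 (SD, n = 3), and the fitted ratio was 2.50-fold, a log2 fold change of 1.32 ± 0.49 (SE) with an interval from 0.13 to 2.51. This did not pass with 6 libraries (limma with Benjamini-Hochberg adjustment, unadjusted p = 0.0342, adjusted p = 0.519). Without cow 489215 ANXA8 was 3.20-fold higher in SF/SCL and passed (limma with Benjamini-Hochberg adjustment, adjusted p = 0.0413), and leaving out cow 527 with all others kept gave a log2 fold change of 0.90.

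ANXA9, an unusual member that lacks working calcium-binding sites in its core, was the scarcest member by reads, with 27, 33 and 58 reads in LF/LCL and 216, 22 and 105 in SF/SCL. As normalized counts these were 28.3, 31.0 and 50.9 in LF/LCL and 164, 29.3 and 114 in SF/SCL. Cows 856 and 97 were above the LF/LCL range, and cow 489215 was inside it. The 95% exact Poisson interval of cow 489215 ran from 18.4 to 44.3 normalized counts and that of cow 97 from 93.1 to 138, for counting error only, so the distance between these SF/SCL cows exceeded counting error. The means were 36.7 ± 12.4 and 102 ± 68.1 (SD, n = 3). The log2 fold change of 1.19 ± 0.69 (SE) had an interval from -0.46 to 2.84 and was not called (limma with Benjamini-Hochberg adjustment, adjusted p = 0.725). Without cow 489215 it was 1.92 ± 0.38 (SE), 3.77-fold higher in SF/SCL, and passed (limma with Benjamini-Hochberg adjustment, adjusted p = 0.0198).

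ANXA8 and ANXA9 lay near the upper end of all genes tested, at percentiles 98.9 and 98.4 of the log2 fold changes with 6 libraries, and 98.3 and 98.8 without cow 489215. ANXA6 lay at percentile 10.8 with 6 libraries and 5.27 without that cow.

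The remaining members did not pass in either fit. ANXA3, a phospholipid-binding member of epithelia and neutrophils, had 626, 1084 and 411 normalized counts in LF/LCL and 523, 1952 and 590 in SF/SCL. The SF/SCL values of cows 856 and 97 lay inside the LF/LCL range, and cow 489215 was above it. Its log2 fold change was 0.37 with an interval from -1.06 to 1.80 (limma with Benjamini-Hochberg adjustment, adjusted p = 0.907), and -0.23 without cow 489215, so the sign rested on this cow.

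ANXA7, or synexin, which promotes membrane fusion in secretion, had 2328, 2243 and 2428 normalized counts in LF/LCL and 2719, 1524 and 2583 in SF/SCL. Cow 489215 was the lowest of all cows, while cows 856 and 97 were slightly above LF/LCL. ANXA7 had a log2 fold change of -0.08 with all cows (interval -0.69 to 0.53) and 0.18 without cow 489215 (interval -0.02 to 0.39). Neither was called, with adjusted p = 0.952 and 0.188 by limma with Benjamini-Hochberg adjustment.

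ANXA11, a widely expressed member with a long N-terminal part that acts in late cell division and RNA transport, had 4925, 3824 and 4975 normalized counts in LF/LCL and 3732, 6190 and 4445 in SF/SCL. Cow 489215 was highest, cow 856 lay just below the LF/LCL range and cow 97 inside it. The log2 fold change was 0.04 (interval -0.53 to 0.62, limma with Benjamini-Hochberg adjustment, adjusted p = 0.971) and -0.16 without cow 489215.

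Cow 489215 did not deviate in the same direction for all members. Against the mean of cows 856 and 97, it had 3.51 times as much ANXA3, 2.05 times as much ANXA2, 1.88 times as much ANXA6 and 1.82 times as much ANXA5. For ANXA1, ANXA11 and ANXA4 the ratios were 1.61, 1.51 and 1.33. It had less of the others, with ratios of 0.575 for ANXA7, 0.468 for ANXA8 and 0.211 for ANXA9. Such distances were common in this library: 10.8% of all genes tested lay farther from cows 856 and 97 than ANXA9 did, and 73.5% lay farther than ANXA4.

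**Figure D3:**
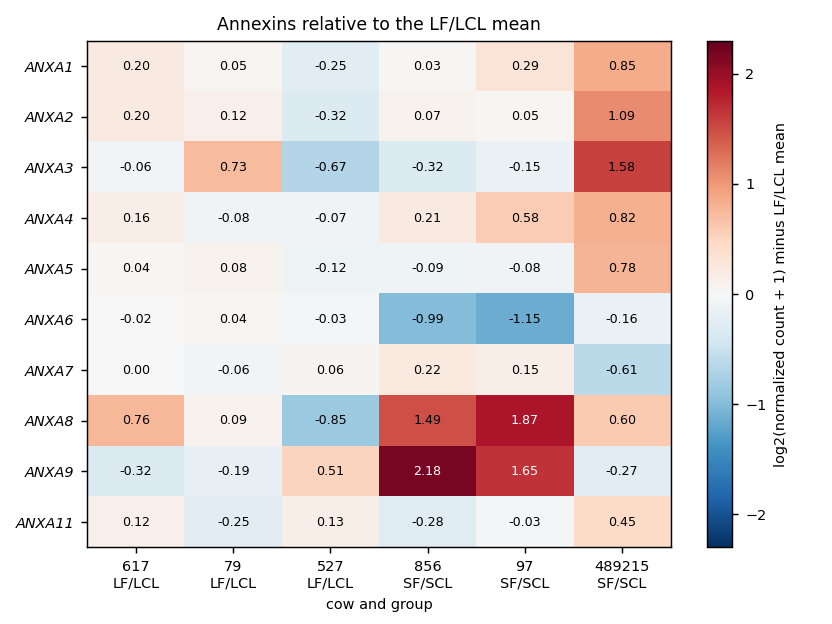
Log2(normalized count + 1) of each annexin (rows) in each cow (columns) minus the LF/LCL mean of that annexin, red for more and blue for less. In cows 856 and 97 ANXA9 reaches 2.18 and 1.65 and ANXA6 -0.99 and -1.15, whereas in cow 489215 ANXA9 is at -0.27, ANXA6 at -0.16 and ANXA3 at 1.58.

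Ratios between annexins of the same library do not depend on how libraries are scaled, and 4 were picked with their values in view. Reads of ANXA4 per read of ANXA6 were 0.680, 0.550 and 0.582 in LF/LCL and 1.38, 1.18 and 1.99 in SF/SCL. All SF/SCL cows, cow 489215 included, were above all LF/LCL cows. This ratio had to separate, because ANXA4 and ANXA6 were each fully separated in opposite directions. ANXA5 over ANXA6 was 0.906, 0.892 and 0.815 in LF/LCL and 1.62, 1.66 and 1.81 in SF/SCL, again separated. This adds no further support, because ANXA6 alone already separated the groups. ANXA5 lay inside its LF/LCL range in cows 856 and 97 and above it only in cow 489215. How often ratios of other gene pairs separate was not computed. ANXA8 over ANXA6 was 0.870, 0.522 and 0.287 against 2.82, 0.855 and 4.11, and ANXA8 over ANXA4 was 1.28, 0.949 and 0.493 against 2.05, 0.724 and 2.07. In these last ratios cow 489215 fell within LF/LCL and the other SF/SCL cows above it. The 10 annexins together took 0.276%, 0.252% and 0.216% of the reads in LF/LCL and 0.272%, 0.326% and 0.300% in SF/SCL, which overlapped.

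Markers of the cell types of the oviduct wall moved along with several annexins, and their part in the annexin differences was not tested. For the 6 smooth muscle markers found, the mean log2 level relative to LF/LCL was -1.21 in cow 856, -0.93 in cow 97 and 0.63 in cow 489215, and 1 of 6 markers, MYH11, did not overlap between the groups, beside 18.1% of all genes tested. For the 5 fibroblast markers the means were -1.09, -1.07 and -0.67, with 3 of 5 not overlapping, beside the same 18.1%. ANXA6 stood at -0.99, -1.15 and -0.16 in the same cows, near both lists in cows 856 and 97 and between them in cow 489215. Endothelial markers, with 4 found, moved less, at -0.43, -0.33 and -0.13.

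On the epithelial side, 6 general markers were at 0.17, 0.38 and 1.06 in cows 856, 97 and 489215, and ANXA4 was at 0.21, 0.58 and 0.82. In LF/LCL cows 617, 79 and 527 the general markers were at 0.38, -0.03 and -0.35. Cows 856 and 97 therefore did not exceed cow 617 for this mean. Of these 6 markers, EPCAM, KRT8 and KRT18 did not overlap between the groups, beside 18.1% of all genes tested. KRT19, CLDN3 and CLDN4 overlapped. CLDN4 alone went the other way, with a log2 fold change of -0.07 with all cows and -0.88 without cow 489215. The 7 ciliated cell markers, of which PIFO was at 0 in every library, averaged 0.89 and 0.93 in cows 856 and 97 and -0.34 in cow 489215, and ANXA9 was at 2.18, 1.65 and -0.27. ANXA8 stood at 1.49, 1.87 and 0.60. CAPS, the ciliated marker with the largest counts, did not rise. It had 16579 and 19493 normalized counts in cows 856 and 97, against 16551 to 21404 in LF/LCL. Its log2 fold change was -0.06 with all cows and -0.09 without cow 489215. DNAI1 and CCDC39, 2 of 6 ciliated markers tested, did not overlap between the groups, beside 18.1% of all genes tested. The 5 secretory markers averaged 1.29, 1.86 and -0.29 in cows 856, 97 and 489215, but they did not move together. OVGP1 was far higher in cows 856 and 97, whereas MSX1 had 125 and 461 normalized counts there, against 1228 to 1721 in LF/LCL and 2739 in cow 489215. Leukocyte markers summed to 4771 to 6273 normalized counts in LF/LCL and 4154 to 8057 in SF/SCL. Mesothelial markers summed to 2451 to 3313 in LF/LCL, to 3483 in cow 489215 and to 26242 and 26725 in cows 856 and 97. This sum rests on MSLN and WT1, 2 of 4 markers. LRRN4 went the other way, with 175 to 412 normalized counts in LF/LCL and 3.80 to 16.3 in SF/SCL, and the mean log2 level of the list relative to LF/LCL was -0.23 in cow 856, 1.23 in cow 97 and -1.15 in cow 489215.

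**Figure D4:**
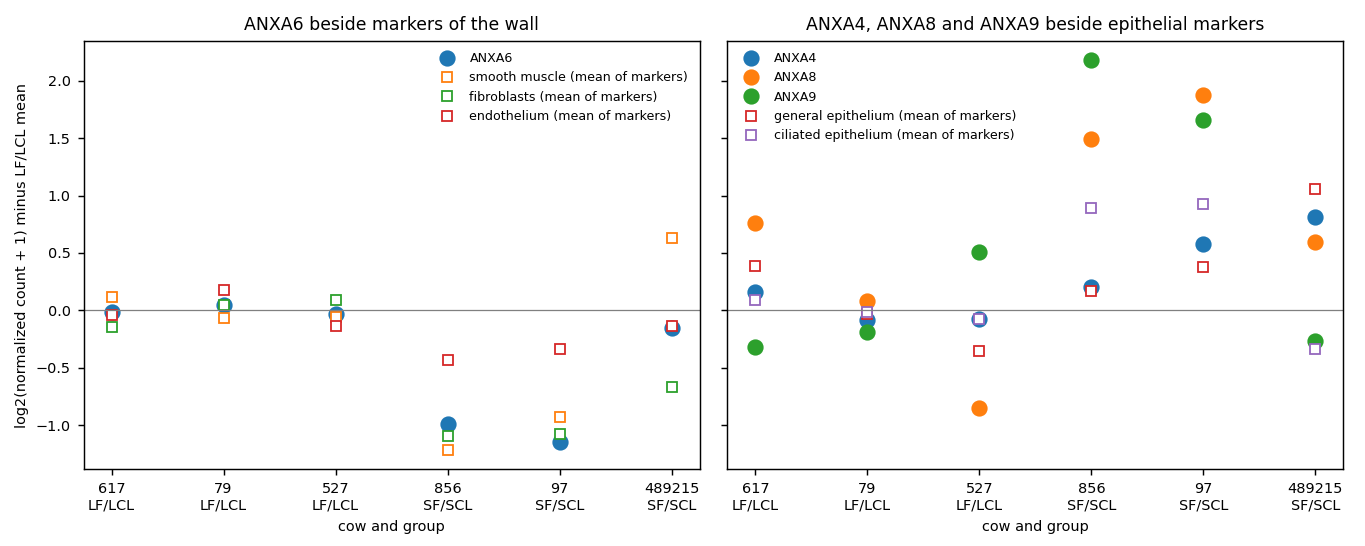
Log2(normalized count + 1) minus the LF/LCL mean in each cow, for annexins (filled circles) and for the mean over markers of a cell type (open squares). On the left ANXA6 lies with smooth muscle and fibroblast markers in cows 856 and 97, and in cow 489215 smooth muscle markers are at 0.63 and ANXA6 at -0.16. On the right ANXA8 and ANXA9 lie above the general and ciliated epithelial markers in cows 856 and 97.

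The genes whose pattern over the 6 libraries was most like that of an annexin were ranked by the root mean square difference of log2 values, each gene centred on its own mean, over 15386 other genes. For ANXA6, whose own values varied by 0.490 around their mean, the nearest were TSPAN11 (0.094), CDC42EP2 (0.105) and PDE1A (0.112). For ANXA8, with a variation of 0.892, they were TSPAN33 (0.209), PAK6 (0.210) and TCTEX1D4 (0.250), and without cow 489215 KRT7, a keratin of simple ductal epithelia, came nearest at 0.157. For ANXA9, with 0.986, they were PIK3AP1 (0.143), HERC6 (0.168) and TLR5 (0.187), of which HERC6 and TLR5 were again among the 3 nearest without cow 489215. For ANXA5, with 0.311, they were PPP1R11 (0.022), UNC50 (0.024) and SLC25A12 (0.029). The small distances of ANXA5 go with its small variation outside cow 489215.

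Among the annexins themselves, the closest patterns were those of ANXA1 with ANXA2 and with ANXA4, both at 0.15, followed by ANXA5 with ANXA2 and with ANXA1, both at 0.16. These pairs are among the candidate sperm receptors, but ANXA5 lay nearer to ANXA11 (0.22) than to ANXA4 (0.26), and ANXA2 lay 0.27 from ANXA4. Many other genes lay nearer than these members did. ANXA1 ranked only 152 among the genes nearest to ANXA4, and ANXA2 ranked 1468 among those nearest to ANXA5. ANXA3 and ANXA9 were farthest apart, at 1.54. All distances rest on the same 6 libraries and weigh cow 489215 heavily.

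Partner proteins of the annexins were read from a list of 15, of which S100A6, FPR1 and FPR2 gave no row and 11 of 12 rows passed the filter. With 6 libraries limma with Benjamini-Hochberg adjustment called 0 of 11, with 1 at p under 0.05 before adjustment (8.66% of all genes), and their median log2 fold change was 0.25. That member was PLAT, tissue plasminogen activator, which the ANXA2 and S100A10 complex binds. It had 1939, 1550 and 1465 normalized counts in LF/LCL and 3682, 2954 and 3930 in SF/SCL, so every SF/SCL cow, cow 489215 included, was above every LF/LCL cow. Of the 11 rows, 2 did not overlap between the groups, PLAT and PDCD6, beside 18.1% of all genes tested. The log2 fold change of PLAT was 1.09 ± 0.20 (SE), with unadjusted p = 0.00109 and adjusted p = 0.351 by limma with Benjamini-Hochberg adjustment. No gene tested had a smaller adjusted p, but the adjustment gave this value to several genes at once, so it does not place PLAT first. Without cow 489215 PLAT and PLAU, the urokinase activator, were called higher in SF/SCL, with log2 fold changes of 1.21 and 1.22. That is 2 of 11 rows, beside 18.2% of all genes tested without this cow. With all cows the value of PLAU was 0.55, since cow 489215 had 229 normalized counts, below the 342 to 473 of LF/LCL. Plasminogen itself, PLG, had at most 1.05 normalized counts and was not tested.

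The binding partners S100A10 and S100A11 were, like ANXA2 and ANXA1, highest in cow 489215, and they were not called in either fit. S100A10, the light chain bound by ANXA2, had 9850, 9420 and 8404 normalized counts in LF/LCL and 7745, 16111 and 6429 in SF/SCL. S100A11, the partner of ANXA1, had 8649, 7164 and 5772 and then 7499, 18228 and 6402. In both, cow 489215 was far above all other cows. The large scaffold AHNAK, which joins ANXA2 and S100A10 at the membrane, went the other way, with 24928 normalized counts in cow 489215 and 43332 to 60452 in the others. PDCD6, the partner of ANXA11, and SRI (sorcin), the partner of ANXA7, had log2 fold changes of 0.45 and 0.59 and were not called.

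Genes that expose or sense phosphatidylserine, the lipid to which ANXA5 binds, gave 11 tested rows of 12, of which limma with Benjamini-Hochberg adjustment called 0 with 6 libraries. Before adjustment 2 of 11 had p under 0.05, beside 8.66% of all genes, the receptor kinase TYRO3 and its ligand protein S, PROS1. TYRO3 had 913, 633 and 753 normalized counts in LF/LCL and 2230, 987 and 2726 in SF/SCL, with all SF/SCL cows above LF/LCL and cow 489215 close to it. PROS1 had 945, 1274 and 1365 in LF/LCL and 739, 929 and 703 in SF/SCL, with all SF/SCL cows below. Without cow 489215, TYRO3 and the flippase ATP11A were called higher in SF/SCL and PROS1 higher in LF/LCL. That is 3 of 11 rows, beside 18.2% of all genes tested without this cow. The direction of ATP11A turned on this cow, which had 122 normalized counts against 754 to 850 in LF/LCL and 1220 and 1103 in cows 856 and 97, and the log2 fold change was -0.56 with all cows and 0.52 without it. The bridging protein GAS6, a further TYRO3 ligand, ranged from 5911 to 7274 over the 6 cows with overlapping groups. The scramblase ANO6 had 2048 to 2807 in LF/LCL and 667 to 1729 in SF/SCL, without overlap, and was not called in either fit. TYRO3, PROS1 and ANO6 were the 3 of 11 rows without overlap, beside 18.1% of all genes tested.

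Other proteins of sperm contact with the oviduct were read beside the annexin receptors, and 4 of 5 rows passed the filter. OVGP1 did not, because its SD exceeded its mean, and HSPA5 and CDH1 gave no row. Limma with Benjamini-Hochberg adjustment called 0 of 4 with 6 libraries, and 2 of 4 had p under 0.05 before adjustment, beside 8.66% of all genes. HSPA8, a constitutive chaperone that oviduct epithelium presents to sperm, had 55457, 50032 and 45379 normalized counts in LF/LCL and 71270, 85020 and 82854 in SF/SCL, and the groups did not overlap. CD9, a tetraspanin carried by oviduct vesicles, had 11804, 9212 and 9460 against 13526, 22605 and 14311, also without overlap. That is 2 of 4 rows without overlap, beside 18.1% of all genes tested. Without cow 489215, HSPA8 was called higher in SF/SCL, with a log2 fold change of 0.62. CD44, a hyaluronan receptor, was called higher in LF/LCL, with -1.05. The fit without this cow called 18.2% of all genes tested. With all cows the value of CD44 was -0.40, and cow 489215 had the most CD44 of all cows, 4758 normalized counts against 2187 to 2941 in LF/LCL and 919 and 1627 in cows 856 and 97. HSP90B1 ranged from 18260 to 27579 with overlapping groups.

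Fucosyltransferases add fucose to glycans or proteins. Which of those listed make the glycans that seminal plasma proteins recognise was not tested. FUT3, FUT5 and FUT6 gave no row, and 9 of 10 rows passed the filter. Limma with Benjamini-Hochberg adjustment called 0 of 9 with 6 libraries, and 0 had p under 0.05 before adjustment, with a median log2 fold change of -0.23. Without cow 489215, FUT1 was called higher in SF/SCL, at 63.0 and 98.6 normalized counts against 23.0, 31.0 and 29.9 in LF/LCL. FUT8, which fucosylates the core of N-glycans, was called higher in LF/LCL, at 716, 692 and 757 against 412 and 505. The fit without this cow called 18.2% of all genes tested. Cow 489215 had 26.6 for FUT1 and 730 for FUT8, inside the LF/LCL ranges. The log2 fold changes were 0.96 and -0.43 with all cows, against 1.48 and -0.66 without cow 489215. Over the 4 lists, 9 of 35 rows that passed the filter with 6 libraries were called without cow 489215, beside the 18.2% of all genes given above.

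Outside the 10 members, the table held ANXA10 and ANXA13. ANXA10 had 0 reads in every library, which leaves room for up to 3 reads in each. ANXA13, an annexin of intestinal and renal epithelium, stood on 2 rows, between which reads could have been divided. The first had 7, 13 and 12 reads in LF/LCL and 2, 17 and 9 in SF/SCL, and the other had 0 reads in every library.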

How the data were processed

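Paired-end RNA-seq of polyadenylated RNA was measured in isthmus tissue of 6 cows, 3 per group, 1 library each, with groups taken from the sample titles. The authors aligned filtered reads to the masked bovine assembly UMD3.1 with TopHat2 2.0.8 and Bowtie2 2.1.0, counted unique reads per Ensembl gene with HTSeq 0.5.4p2, and divided by DESeq 1.12.1 size factors. The deposited signal values are these normalized counts. Whether counting used the strand is not given in the sources used here, so antisense reads cannot be told apart. All 147696 values were whole reads after division by the step of 1 read (tolerance 0.0006). Intervals from reads cover counting error only.

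Members and gene lists were chosen with earlier results of these data known. The 15387 genes whose mean exceeded both 5 and their SD were tested on log2(value + 1) with limma 3.58.1 in R 4.3.3 (lmFit and a robust eBayes with an intensity trend). This scale understates the change of low genes. Calls are at a Benjamini-Hochberg adjusted p-value under 0.05. An exact permutation test of a single value over the 10 divisions of the cows cannot go below p = 0.1 and was not used. Alternatives were edgeR 4.0.16 and DESeq2 1.42.0 on the recovered reads, other filters, pseudocounts and scalings, plain eBayes, and each cow left out. Named genes were the 10 members, ANXA10 and ANXA13, the 3 nearest genes for 4 members, 4 companion lists and 9 lists of cell type markers. Protein and promoter sequences, positions and transcript lengths were not used here.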

Additional observations from a re-analysis of the deposited data

How the results depend on the processing

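Over 18 alternatives, ANXA1, ANXA2, ANXA4, ANXA6, ANXA8 and ANXA9 kept the sign of their log2 fold change, with ranges of 0.15 to 0.57, 0.04 to 0.58, 0.39 to 0.70, -1.07 to -0.57, 0.90 to 1.70 and 0.69 to 1.92. The number of genes called moved from 0 to 416 with DESeq2 (companion list members from 0 to 2), and, leaving out 1 cow at a time in limma, ran from 0 to 2827, with 0 to 3 annexins, 0 to 9 companion list members and a median annexin log2 fold change of 0.11 to 0.57. The upper counts all came without cow 489215. The tests on reads without cow 489215 were chosen after seeing the data. There edgeR called 2768 genes, 3 annexins and 9 companion list members, with a median of 0.10, and DESeq2 called 3938 genes, 3 annexins and 12 companion list members, with a median of 0.094. Signs turned without cow 489215 in limma, edgeR and DESeq2, in this order, for ANXA3 (-0.23, -0.35 and -0.35), ANXA5 (-0.089, -0.094 and -0.098), ANXA7 (0.18, 0.18 and 0.18) and ANXA11 (-0.16, -0.16 and -0.17). ANXA11 also turned without cow 79 (-0.080) and with values scaled to the library total (-0.046), a scaling chosen after seeing the data that moves the median of all genes tested to -0.10. Leaving out 1 cow at a time, these 4 ran from -0.23 to 0.73, -0.089 to 0.35, -0.23 to 0.18 and -0.16 to 0.21. The cause was not tested in any of these. ANXA6, ANXA8 and ANXA9 passed the threshold in the 3 fits without cow 489215 and in no other alternative. The other filters, pseudocounts, TMM scaling, plain eBayes and edgeR with 6 libraries called 0 annexins. No paired analysis was possible because each cow number stands in 1 group only. With 3 cows per group, the 95% intervals of most annexins leave room for differences in either direction, with cow 489215 and also without it. Cow 489215 added to the spread, but LF/LCL cows also differed, with a CV of 51.7% for ANXA8 and 48.6% for ANXA3. The depth of 22 to 216 reads limits ANXA9 in addition.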
